A study of Mus musculus with 54 samples.

Results

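The genes described here are those whose symbols follow the naming pattern of cytosolic ribosomal proteins, Rpl or Rps followed by a number. The pattern found 92 of the 25149 genes in the deposited tables. Of these, 73 are standard proteins of the cytosolic ribosome, 43 of the large and 30 of the small subunit. A further 8 are paralogs of a standard gene (Rpl3l, Rpl7l1, Rpl10l, Rpl22l1, Rpl36al, Rpl39l, Rps27l and Rps27rt), and 11 share only the name: the kinases Rps6ka1 to Rps6ka6, Rps6kb1, Rps6kb2, Rps6kc1 and Rps6kl1, and the binding protein Rps19bp1. Follicles of CD-1 mice aged 14 to 16 days had been grown in alginate, a hydrogel that holds their round shape, for 8 days and were then kept for 12 h in maturation medium with serum (10% FBS), EGF at 10 ng/ml and recombinant FSH at 10 mIU/ml. In the post-hCG groups that medium also held hCG, a hormone that acts on the LH receptor and triggers ovulation, at 1.5 IU/ml. Each follicle was cut into 2 sides and every side gave its own Smart-Seq2 library: 15 putative unruptured and 14 putative ruptured sides without hCG, and 12 unruptured and 13 ruptured sides post-hCG. Without hCG no follicle had ruptured, so these sides were assigned from the swelling of the antral cavity and an image-based model. The labels do not say which libraries came from the same follicle, animal or culture. The main fits therefore treat libraries as independent, and p-values measure the spread between the libraries of the groups compared.

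A cytosolic ribosome is built from a large subunit, which joins amino acids, and a small subunit, which reads the messenger RNA, and each subunit holds 1 copy of nearly all of its proteins. Ribosomal protein messenger RNAs are among the most abundant in dividing and secreting cells. They begin with a run of C and T bases (the 5′ terminal oligopyrimidine, or TOP, motif) through which growth signaling by mTOR sets how well they are translated. FSH and LH both act through mTOR and the ribosomal protein S6 kinases in granulosa cells, the cells that line the inside of the follicle wall.

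RefSeq held promoter entries for 54 of the 73 standard genes, 64 promoters in all, each reaching from 250 bases before to 50 bases after the start of transcription. The sequences of 10 genes are shown because the results turn on these genes: 6 small ribosomal proteins and Rps26, which are 7 of the 10 members with the largest value in the test of side against medium, and 3 genes that were lower on the putative ruptured side. Each run gives the 70 bases before and the first 30 bases from the start, in the direction of the gene (RefSeq, GRCm38.p6). Capitals mark the longest run of C and T that touches the interval from 5 bases before to 11 bases into the transcript.
Rps28 (chr17:33824533-33824632, minus strand): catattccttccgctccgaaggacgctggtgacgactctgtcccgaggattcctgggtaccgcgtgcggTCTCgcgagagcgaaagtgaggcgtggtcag
Rps27 (chr3:90213619-90213718, minus strand): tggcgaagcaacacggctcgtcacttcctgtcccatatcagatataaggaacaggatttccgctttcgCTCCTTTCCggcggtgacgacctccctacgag
Rpl37a (chr1:72711190-72711289, plus strand): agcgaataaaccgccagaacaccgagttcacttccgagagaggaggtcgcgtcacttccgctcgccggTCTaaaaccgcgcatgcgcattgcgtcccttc
Rpl41 (chr10:128549139-128549238, minus strand): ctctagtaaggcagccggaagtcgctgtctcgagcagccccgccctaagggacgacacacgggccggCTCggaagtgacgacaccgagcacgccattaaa
Rpl39 (chrX:37085193-37085292, minus strand): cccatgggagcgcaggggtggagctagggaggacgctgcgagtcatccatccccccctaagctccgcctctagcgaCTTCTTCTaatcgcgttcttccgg
Rpl38 (chr11:114668510-114668609, plus strand): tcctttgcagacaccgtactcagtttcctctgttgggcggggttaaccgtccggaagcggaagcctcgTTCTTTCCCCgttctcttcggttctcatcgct
Rps26 (chr10:128626477-128626576, minus strand): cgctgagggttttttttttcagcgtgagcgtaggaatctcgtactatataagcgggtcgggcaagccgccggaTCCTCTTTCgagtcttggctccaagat
Rps12 (chr10:23787180-23787279, minus strand): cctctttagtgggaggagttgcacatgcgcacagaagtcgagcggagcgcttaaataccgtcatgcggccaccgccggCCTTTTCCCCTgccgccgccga
Rpl12 (chr2:32961642-32961741, plus strand): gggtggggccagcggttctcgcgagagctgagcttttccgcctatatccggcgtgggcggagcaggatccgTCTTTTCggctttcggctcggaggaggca
Rpl22l1 (chr3:28805438-28805537, plus strand): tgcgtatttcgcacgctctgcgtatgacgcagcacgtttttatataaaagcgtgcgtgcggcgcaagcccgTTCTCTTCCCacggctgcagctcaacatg

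The marked run was longest in Rps12, with 11 bases, followed by Rpl38 and Rpl22l1, with 10 bases each. It was shortest in Rpl37a and Rpl41, with 3 bases each. A run of at least 6 such bases near the start was found in 50% of the standard promoters and in 25.3% of all 32851 promoters in RefSeq. CGGAAG, the core that Ets family factors such as GABP recognise, was searched on both strands and was found in 62.5% of the standard promoters against 16.9% of all. TATAA, the core of the TATA box, was found on the gene's strand in 21.9% of the standard promoters and in 17.5% of all. CTTTCC, a common start of these transcripts, was searched on the gene's strand over the whole of each promoter and was found in 37.5% and 14.1%. A match can overlap the marked run, and where the matches lay was not checked. The 10 promoters of the standard proteins shorter than 110 residues, a group set apart after the values had been seen, and the 54 of the longer ones are given side by side, with no test. CGGAAG was present in 100% of the first and 55.6% of the second, TATAA in 50% and 16.7%, CTTTCC in 30% and 38.9%, and the run of C and T in 40% and 51.9%.

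Totals ran from 1497138 to 2834794 counts per library. The tissue is labelled as cumulus-oocyte complex, although the complexes were removed before sequencing. The summed level of 10 oocyte markers, the zona genes among them, had a median of at most 0.20 TPM in every group, and 8 of the 10 markers had a median of 0 in all 4 groups. The summed level of the granulosa markers was 771 TPM or more in every library, and Inha was the highest of them, with group medians of 1051 to 9027 TPM. Foxl2, Amhr2, Inha, Nr5a2 and Fst had a count in all 54 libraries, and Fshr and Hsd17b1 in 53. Wt1 had a count in 40, Cyp19a1 in 39 and Amh in 10. The summed level of 10 theca and stroma markers was 33.7 to 2811 TPM (putative unruptured), 4.73 to 603 TPM (putative ruptured), 73.7 to 1337 TPM (unruptured) and 1.99 to 54 TPM (ruptured), so they moved with the side in both media. Replicate 1 of the putative unruptured side stood apart with 160 TPM of oocyte markers, and results that rest on it are given without it too. Fewer cells of a type and less RNA per cell cannot be told apart in these samples.

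The standard ribosomal protein genes were expressed at very different levels. Rpl5, which carries 5S RNA into the large subunit and can hold back Mdm2, had the lowest mean over all libraries, 20.5 TPM. The median was 846 TPM over all 73, 718 TPM in the large and 1169 TPM in the small subunit. All 73 had a count in every library, 70 had a mean above 100 TPM, and 30 members were among the 100 genes with the highest mean TPM of the whole table. High levels were measured for Rpl23a (2711 TPM), a protein at the exit tunnel, Rpl9 (2574 TPM) and Rps27 (2057 TPM). Above Rpl5, the lowest were Rpl12 (50.9 TPM), a protein of the stalk base, Rpl35 (66.9 TPM) and Rpl37 (102 TPM). The ranges of Rpl12 and Rpl35 over the libraries overlapped, as did those of Rpl23a and Rpl9.

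**Figure D1:**
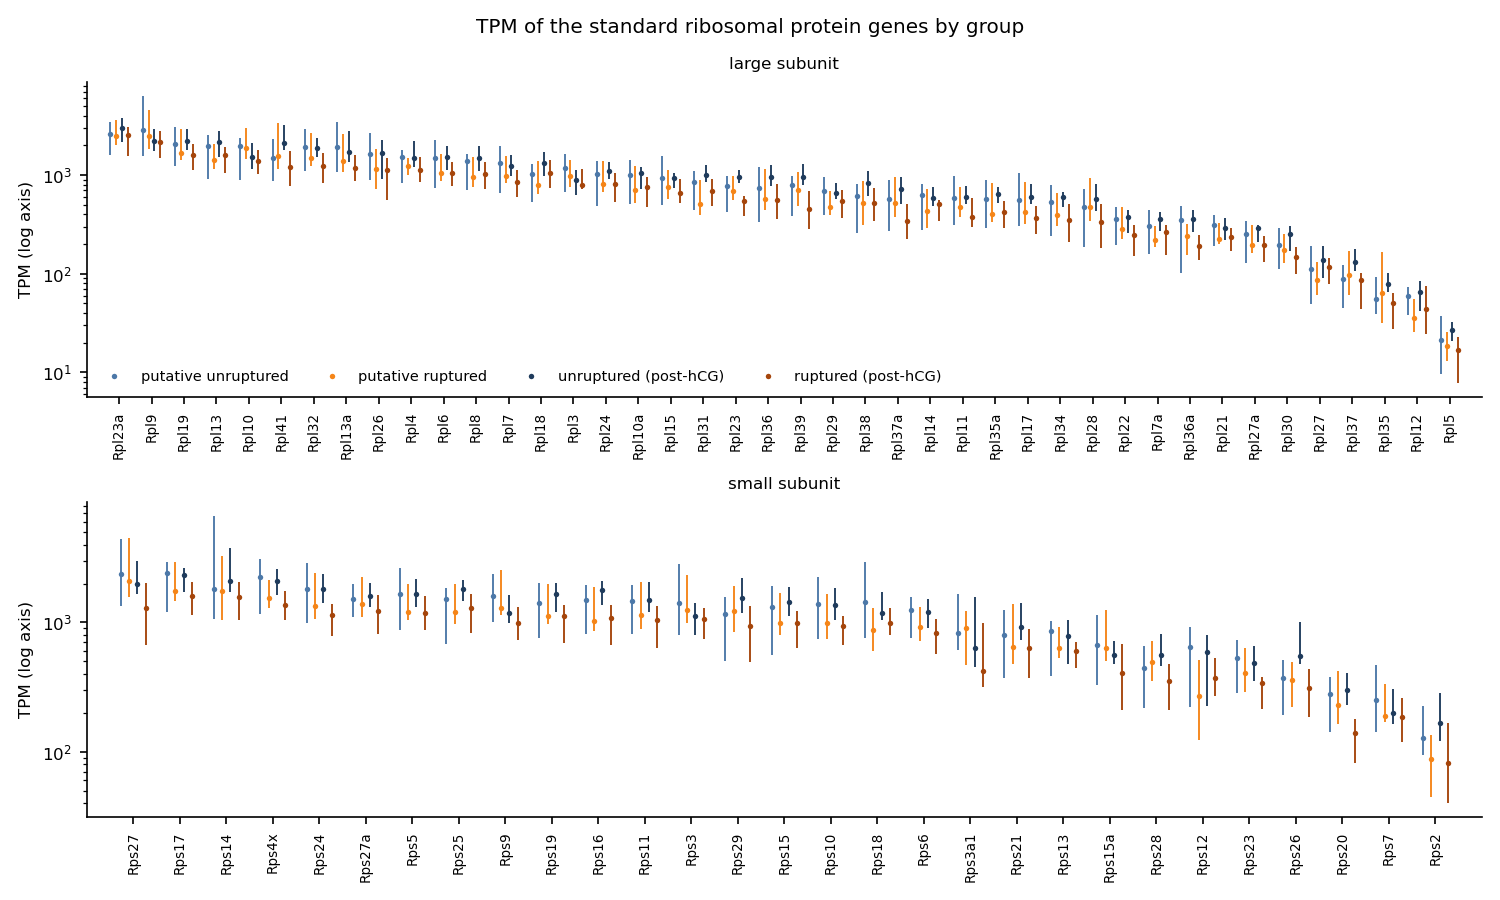
Level of 71 standard ribosomal protein genes in the 4 groups, as TPM on a log axis, with the median of each group as a point and the range over its libraries as a line. Rpl5 lies lowest and Rpl23a, Rpl9 and Rps27 are among the highest.

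These levels depend on how reads were shared between near-identical sequences. Of the non-zero values of all genes 72.2% were whole numbers, against 20.7% of those of the members, and a count that is not whole means that reads were shared between genes when they were counted. In the transcript sequences, 49 of the 73 standard genes shared more than 50% of their 35-base words with another gene, and the median share was 59.96%. Differences in level between genes are therefore uncertain, whereas a comparison of groups sets the same gene against itself.

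The members' share of all counts had a mean ± SD of 5.44% ± 1.21 (putative unruptured, n = 15), 4.70% ± 0.72 (putative ruptured, n = 14), 5.04% ± 0.71 (unruptured, n = 12) and 3.5% ± 0.53 (ruptured, n = 13). Their share of the listed TPM without hCG had its lowest, median and highest value at 7.56, 12.5 and 18.6% (putative unruptured) and at 9.06, 10.4 and 17.5% (putative ruptured). Post-hCG the same 3 values were 10.6, 12.8 and 17.2% (unruptured) and 6.71, 9.25 and 11% (ruptured). The ruptured side was the lowest group, and its 13 libraries overlapped with the 12 of the unruptured side only between 10.6 and 11%. The 2 libraries of the ruptured side with the highest sums of theca and stroma markers, replicates 4 and 13, were also those with the highest shares, 11 and 10.7%. The part of the marker levels in these shares was not tested. Within the libraries that share a letter in their labels, the unruptured side had a mean share of 12.1% ± 1.07 and the ruptured side of 9.48% ± 1.54 (letter C, n = 4 and 5), and the putative unruptured side had 12.7% ± 3.21 and the putative ruptured side 12.0% ± 3.28 (letter G, n = 5 each).

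The balance between the subunits varied less than their sum. The small subunit held 44.9% ± 1.05 (putative unruptured), 43.3% ± 0.81 (putative ruptured), 44% ± 0.35 (unruptured) and 42.6% ± 0.54 (ruptured) of the TPM of standard genes. Over all libraries this share ran from 41.8 to 48.2%, whereas the share that all standard genes took of the listed TPM ranged from 6.60 to 18.4%. The highest small subunit share, 48.2%, came from replicate 1 of the putative unruptured side, the library with oocyte markers. Each value is a description of these libraries, given without a test.

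**Figure D2:**
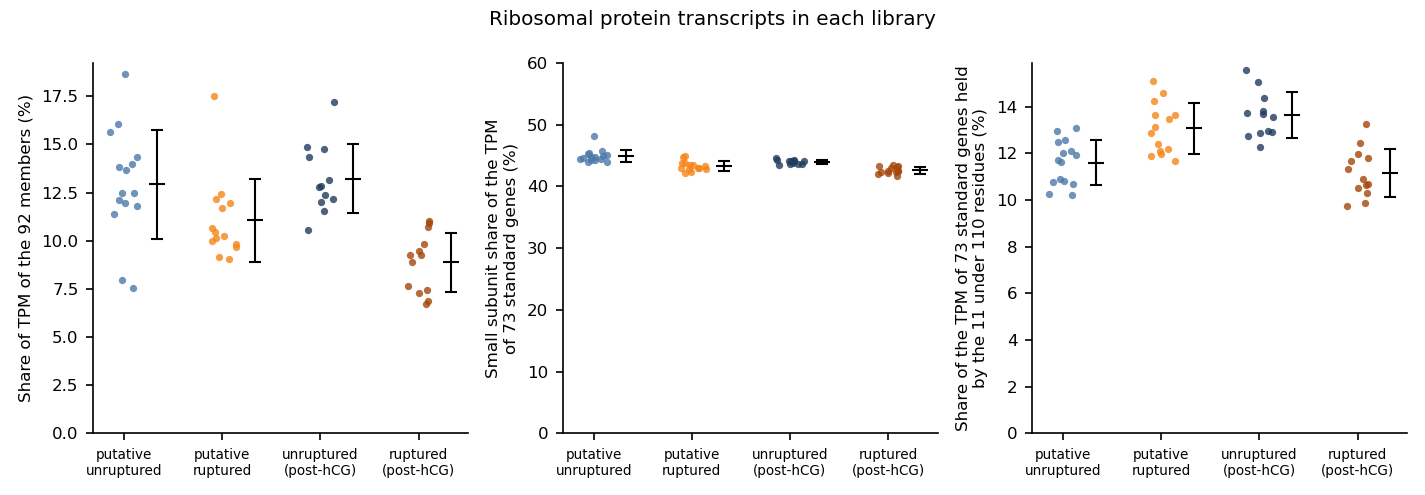
Share of the listed TPM held by all members, share of the standard genes' TPM held by the small subunit, and share of it held by the 11 standard proteins shorter than 110 residues, in percent. Points are libraries and bars give the mean ± SD of each group; the ruptured side post-hCG lies lowest in the first panel, at 6.71 to 11%.

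Without hCG, some ribosomal protein genes were lower on the putative ruptured side, and how many passed depended on the scale. Of 86 members tested, 4 were higher and 10 lower there at an FDR of 0.05 (edgeR's quasi-likelihood test). Of all genes, 8.84% were called higher and 8.96% lower. The members' share called lower was thus near that of all genes, and their share called higher was under it. Among standard genes, 0 of 43 large and 2 of 30 small subunit genes were higher, and 3 large and 5 small subunit genes were lower. At an unadjusted p under 0.05 the standard genes gave 4 higher and 20 lower, against 1302 and 1429 of all 9063 genes. DESeq2 called 3 standard genes higher and 8 lower, against 1016 and 1025 of all 20998 genes. On the TPM scale limma called 17 standard genes lower and 0 higher, against 598 lower and 456 higher of all 9876 genes. At an unadjusted p under 0.05 these numbers were 39 and 0, against 1336 and 944. The median log2 fold change was -0.17 over the members and -0.01 over all genes tested. Members that did not reach the test in any comparison, because their counts were too low, were Rpl3l, Rpl10l, Rpl39l, Rps6ka5, Rps6ka6 and Rps6kl1.

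Rpl22l1, a paralog of the large subunit protein Rpl22, was the member with the largest fall. It ran from 63.6 to 305 TPM with a median of 199.2 TPM on the putative unruptured side, against 29.4 to 181 TPM with a median of 74.7 TPM on the putative ruptured side, where all 14 libraries lay below the other side's median. The change was -0.96 ± 0.23 (log2 fold change ± SE, adjusted p = 0.0035). Rps12, a protein of the head of the small subunit that takes part in sensing ribosome defects in cell competition, ran from 220 to 920 TPM (median 643) on the putative unruptured side, against 123 to 514 TPM (median 269) on the putative ruptured side. Its log2 fold change was -0.87 ± 0.17 (adjusted p = 0.00061), and the groups overlapped between 220 and 514 TPM. Rpl12 fell by 0.55 ± 0.11 (adjusted p = 0.00083), from 37.8 to 72.9 TPM (median 59.5) to 25.7 to 55.1 TPM (median 35.2), and 11 of its 14 putative ruptured libraries lay under every putative unruptured library. Rps2, at the entry of the messenger RNA channel, changed by -0.57, and Rps18, in the head, by -0.49 on the log2 scale.

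The 4 members called higher were Rps28 (log2 fold change 0.68), the kinase Rps6ka2 (0.61), Rps27l (0.53), a paralog of Rps27 that p53 is known to induce, and Rps29 (0.52). Rps28 had medians of 444 TPM (putative unruptured) and 496 TPM (putative ruptured), and Rps29 of 1166 and 1219 TPM, with ranges that overlapped widely. On the TPM scale, tested with limma, 0 members were higher at the FDR and 2 at an unadjusted p under 0.05. Within the libraries that share a label letter (G, 5 against 5), 0 members passed in either direction, with 4 lower at an unadjusted p under 0.05, where 3 of 9068 genes passed in all. Without replicate 1 of the putative unruptured side the counts were 5 higher and 9 lower, and without replicate 4 of the putative ruptured side 4 higher and 13 lower.

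Post-hCG, many ribosomal protein genes of both subunits were lower on the ruptured side than on the unruptured side, and how many passed depended on the scale and the libraries. Of 86 members 1 was higher and 65 were lower, against 10% of all genes called higher and 11.3% called lower. Among standard genes, 34 of 43 large and 27 of 30 small subunit genes were lower and 0 were higher (0 at an unadjusted p under 0.05, and 0 by DESeq2, which called 60 lower). With the length offset described further on, 23 large and 17 small subunit genes were lower, and within the libraries of label letter C 14 and 10. The median log2 fold change was -0.38 in the large and -0.42 in the small subunit, and 0.01 over all genes tested. Standard genes that did not pass included Rpl4, Rpl10, Rpl14, Rpl15, Rpl18, Rpl21, Rpl23a, Rpl27, Rpl29, Rps3a1 and Rps7. By position in the ribosome, 14 of 14 proteins of the small subunit head, 13 of 16 of its body and platform and 7 of 8 at the rim of the exit tunnel were lower. With the offset these numbers were 8, 9 and 5. Theca and stroma markers were lower on the same side, as given above, and their part in these counts was not tested.

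Rpl37a, a small zinc-binding protein of the large subunit, ran from 509 to 962 TPM with a median of 728 TPM on the unruptured side, against 225 to 506 TPM with a median of 347 TPM on the ruptured side. The groups did not overlap, and the log2 fold change was -1.03 ± 0.13 (adjusted p = 8.1e-07). Rpl39, a protein inside the exit tunnel, ran from 794 to 1282 TPM (median 957) and from 281 to 693 TPM (median 455), again without overlap, at -1.0 ± 0.12 (adjusted p = 3.5e-07). Rpl36a fell by 0.98 ± 0.10 (adjusted p = 6.1e-08), from a median of 359 TPM to 191 TPM, and its highest ruptured library, at 245 TPM, lay under the lowest unruptured one, at 266 TPM. The next largest were Rps29 (-0.91), Rps28 (-0.89) and Rps26 (-0.88). Rps26, which lies at the messenger RNA exit channel, ran from 481 to 999 TPM (median 550) on the unruptured side, against 185 to 434 TPM (median 314) on the ruptured one.

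In 11 members the libraries of the sides did not overlap in TPM: Rpl17, Rpl23, Rpl35, Rpl36a, Rpl37, Rpl37a, Rpl39, Rpl41, Rps20, Rps24 and Rps26. The share of all genes without such overlap was not counted, so how unusual this number is cannot be said. On log2(TPM + 1) the median change of all genes tested between these sides was itself -0.21. Rps6, the S6 protein that the S6 kinases phosphorylate, was among those that fell, at -0.36 ± 0.10 (adjusted p = 0.012), from a median of 1211 TPM to 835 TPM. Both proteins of the 5S particle were lower, Rpl5 by -0.42 and Rpl11 by -0.33. Within the libraries that share a label letter (C, 4 against 5) 25 members were lower, the 11 standard proteins shorter than 110 residues among them. Of all 9004 genes tested there, 454 were lower. Without replicates 4 and 13 of the ruptured side the count was 66.

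**Figure D3:**
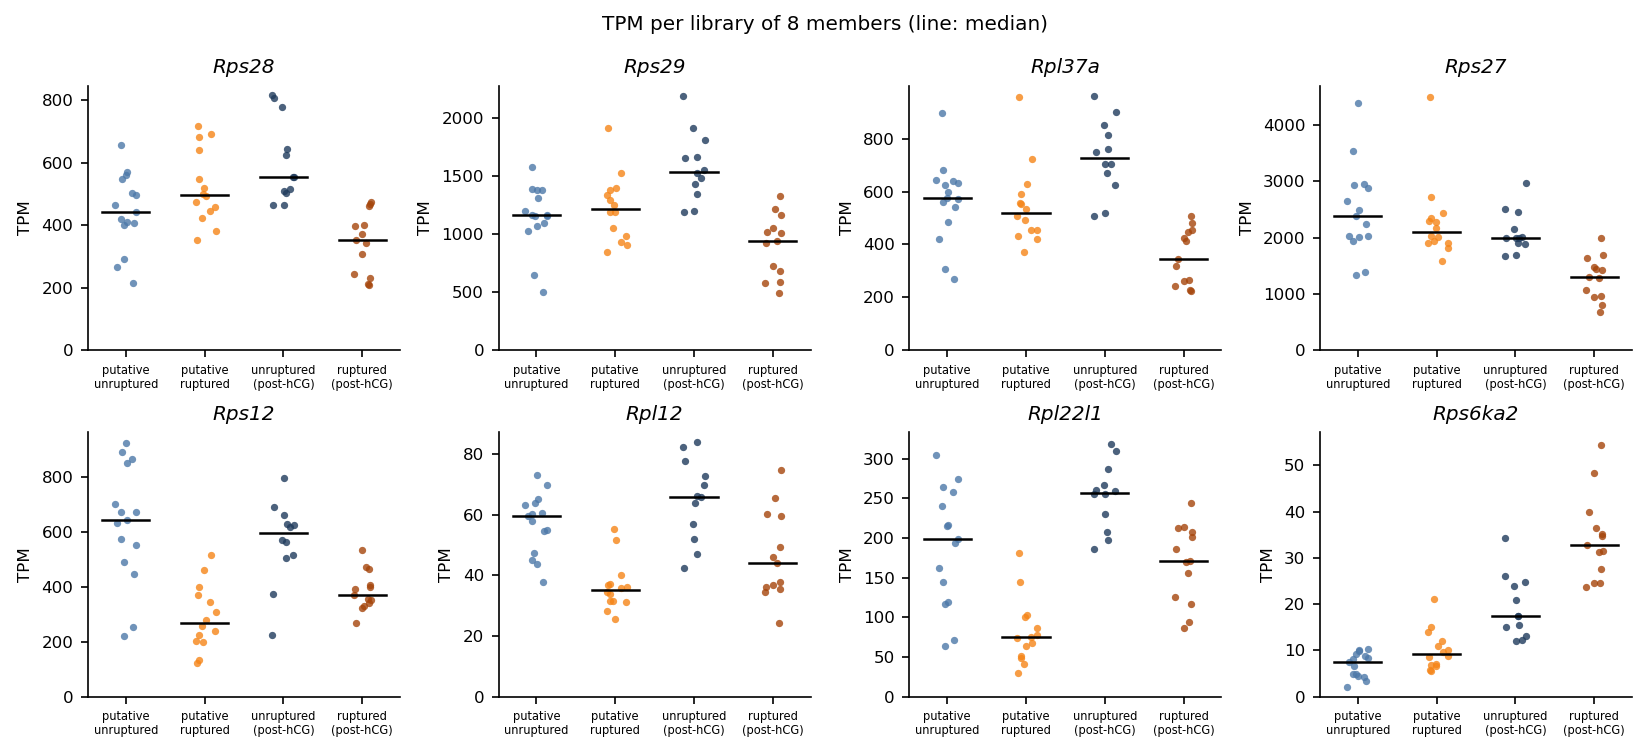
Level of 8 members in each library of the 4 groups, in TPM, with the group median as a line. Rps28, Rps29 and Rpl37a have their lowest medians on the ruptured side post-hCG, Rps12, Rpl12 and Rpl22l1 lie lowest by median on the putative ruptured side, and Rps6ka2 rises with hCG on both sides.

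On the unruptured side, the hCG groups were compared to ask which members moved with the hormone. Of 86 members, 22 were higher and 1 was lower with hCG, against 25.4% and 27.7% of all genes, so the share called higher was near that of all genes and the share called lower far under it. Among standard genes, 11 of 43 large and 5 of 30 small subunit genes were higher and 0 were lower (2 at an unadjusted p under 0.05, 0 by DESeq2). The median log2 fold change was 0.15 over the members and -0.03 over all genes. Label letters B and C hold the post-hCG libraries of this side and letters F and G those without hCG, so that medium and letter cannot be told apart in the media comparisons.

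The member with the largest rise was Rps6ka2, a kinase described further on. Among ribosomal proteins, Rps26 rose by 0.81 ± 0.15 (adjusted p = 3.1e-05), from a range of 192 to 507 TPM to one of 481 to 999 TPM, and 10 of the 12 libraries with hCG lay above every library without it. Rpl38, which is known for a role in translating Hox genes, rose by 0.77 ± 0.16, from a median of 610 TPM to 832 TPM. Rps29 rose by 0.75, Rpl41, the shortest ribosomal protein, by 0.71 and the paralog Rpl36al by 0.70. The member called lower was Rps6ka3 (-0.38), whose TPM median was 0.98 without and 1.17 with hCG, so that its direction depended on the scale.

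On the ruptured side, falls and rises with hCG were both found among the members, each in a smaller share than over all genes. With hCG, 11 of 86 members were higher and 19 lower, against 29.7% and 30.4% of all genes. Among standard genes 5 were higher, 3 of the large and 2 of the small subunit, and 18 were lower, 9 of each subunit. The median log2 fold change was -0.10 over the members and 0.00 over all genes. Rps27, a zinc-binding protein of the small subunit, fell most. It ran from 1584 to 4504 TPM (median 2103) without hCG and from 673 to 2002 TPM (median 1293) with it, and the log2 fold change was -1.16 ± 0.15 (adjusted p = 6.0e-08). Rps27rt, a near-copy that holds 98.7% of the 35-base words of Rps27, changed by -1.04 and cannot be told apart from it in these counts. Rps28 (-0.88), Rps29 (-0.68), Rps3a1 (-0.66) and Rpl37a (-0.60) followed.

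Rps12, Rpl12 and Rpl22l1, which were lower on the putative ruptured side, were higher with hCG there. Rps2, which was lower there too, gave 0.24 (adjusted p = 0.29). Rpl22l1 rose by 0.97 ± 0.19 (adjusted p = 6.4e-05) to 86.2 to 245 TPM (median 171), and all 13 libraries lay above the median without hCG. Rps12 rose by 0.50 ± 0.15 (adjusted p = 0.0043) to 267 to 532 TPM (median 370), and Rpl12 by 0.47 ± 0.11 (adjusted p = 0.00053) to 24.3 to 74.5 TPM (median 44.1). With limma on TPM the rises of Rpl22l1 and Rps12 passed the FDR and that of Rpl12 did not. The group without hCG is shared by this comparison and that of the sides without hCG, so these values are not independent of the falls given above. Without replicates 4 and 13 of the ruptured side 9 members were higher and 26 lower.

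The interaction asks whether the difference between the sides itself depended on hCG, in a fit over all 54 libraries. The sides share only the label letters C and G, the media share none, and the other libraries of each side carry letters of their own. The interaction was not fitted within label letters, so their part in it was not tested. It was below 0 in 17 members and above 0 in 0 (1 at an unadjusted p under 0.05, 0 by DESeq2), against 4.65% of all genes called lower and 4.25% called higher. A value below 0 means that the ruptured side was lower relative to the unruptured side post-hCG than without hCG. The 17 were 10 large subunit genes, 6 small subunit genes and Rps27rt. The median over the standard genes was -0.17, and it was -0.01 over all genes tested. With the length offset described further on, these medians were -0.04 and 0.00.

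Rps28 had the largest interaction, -1.57 ± 0.22 (adjusted p = 2.1e-06). Its lowest, median and highest levels were 217, 444 and 658 TPM (putative unruptured), 353, 496 and 719 TPM (putative ruptured), 464, 555 and 816 TPM (unruptured) and 210, 353 and 473 TPM (ruptured). On counts it was 1.61-fold higher on the putative ruptured side and 1.85-fold lower on the ruptured side than on the respective other side. Rps29, a zinc-binding protein of the small subunit head, followed at -1.43 ± 0.20 (adjusted p = 4.3e-06). The others among the 10 largest were Rps27 (-1.21), Rpl37a (-1.17), Rpl41 (-1.08), Rps27rt (-1.08), Rpl39 (-1.07), Rpl38 (-1.06), Rps26 (-1.0) and Rps21 (-0.97). The remaining members past the FDR lay between -0.89 (Rpl36) and -0.49 (Rpl30). The count was 18 without replicate 1 of the putative unruptured side, 15 without replicate 4 of the putative ruptured side and 21 without replicates 4 and 13 of the ruptured side.

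**Figure D4:**
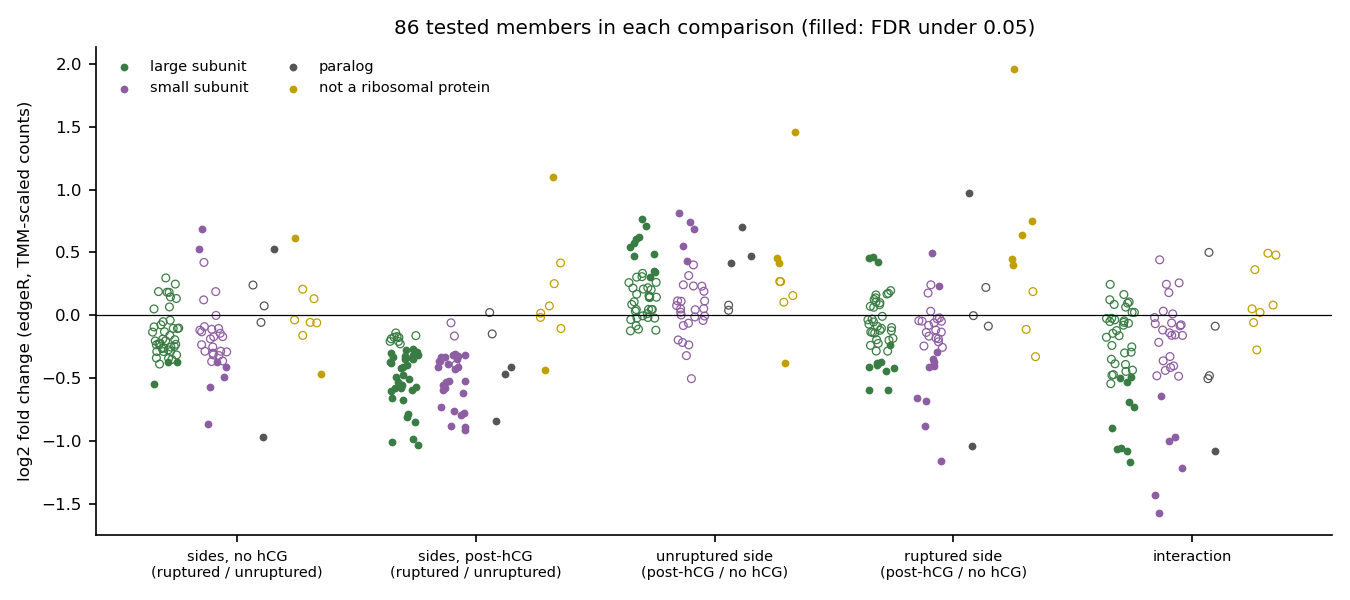
Log2 fold change of the 86 members tested in the 5 comparisons, by class, with filled points for an FDR under 0.05. In the comparison of the sides post-hCG 61 of 73 standard genes are filled and lie below 0; in the interaction 16 are.

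Of the 10 members with the largest interaction, 9 encode proteins under 110 residues, the exception being Rps26 (115 residues). After the values had been seen, the 11 standard proteins under 110 residues were set apart: Rpl41 (25 residues), Rpl39, Rps29, Rps28, Rpl38, Rps21, Rps27, Rpl37a, Rpl37, Rpl36 and Rpl36a (106 residues). The group is therefore described by counts and medians only. It was called lower in the interaction in 11 of 11 genes, lower on the ruptured side post-hCG in 11, higher with hCG on the unruptured side in 9, lower with hCG on the ruptured side in 8 and higher on the putative ruptured side in 2 (0 lower). The other 62 standard genes gave 5 lower in the interaction, 50 lower, 7 higher, 10 lower and 5 higher, and 8 lower in these comparisons. The medians of the 11 were -1.07 in the interaction, -0.85 between the sides post-hCG, 0.61 and -0.41 between the media on the unruptured and ruptured sides, and 0.19 between the sides without hCG.

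Over the 73 standard genes, protein length and log2 fold change had a Spearman's rho of 0.73 in the interaction, 0.70 between the sides post-hCG, -0.61 and 0.53 between the media on the unruptured and ruptured sides and -0.62 between the sides without hCG. Points are genes measured in the same libraries, and genes are not independent replicates. Over the genes outside the members the same rho lay between -0.05 and 0.06. Most of those encode proteins of 200 residues or more (7446 of 8442 between the sides without hCG), against 20 of the 73 standard genes. The rho values therefore cover unlike lengths and cannot show whether the trend is particular to the members. Outside the members, genes for proteins under 110 residues had medians of -0.19 in the interaction (n = 218), -0.14 between the sides post-hCG (n = 192), 0.29 and -0.01 with hCG on the unruptured (n = 209) and ruptured side (n = 196), and 0.06 between the sides without hCG (n = 197). Genes outside the members with transcripts of at most 500 bases had medians further from 0. They were -0.53 in the interaction, where 18 of 49 were lower, -0.34 between the sides post-hCG, 0.54 and -0.03 with hCG on the unruptured and ruptured side, and 0.17 between the sides without hCG. The 16 standard genes with transcripts of at most 500 bases had medians of -0.62, -0.73, 0.34, -0.28 and -0.07 in the same order. A difference between the members and other short genes was not tested.

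The length that the TPM values were made with also differed between the groups for short transcripts. The ratio of count to TPM, scaled in each library so that 788 genes with transcripts of 2500 to 6000 bases kept their annotated length, gives an implied length for each gene. For Rps28, whose annotated transcript has 271 bases, it was 90.1 to 114 bases (median 108, putative unruptured), 122 to 166 bases (median 139, putative ruptured), 99.5 to 164 bases (median 129, unruptured) and 92.6 to 119 bases (median 99.9, ruptured). The 16 standard genes with transcripts of at most 500 bases had implied lengths that were 1.17, 1.18 and 0.98 times those on the putative unruptured side, in the order putative ruptured, unruptured and ruptured. In 35 genes outside the members of the same transcript length the ratios were 1.16, 1.16 and 0.99. What set these lengths was not tested. The results were computed again with the implied lengths as an offset in the same edgeR fit, an alternative chosen after the data had been seen.

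With this offset, 10 members were lower in the interaction (3.26% of all genes) and 2 higher (3.17%), and 8 of the 17 stayed: Rpl23, Rpl37, Rpl37a, Rpl39, Rpl41, Rps26, Rps28 and Rps29. Their values ran from -0.87 for Rps26 to -0.59 for Rpl23, and Rps28 stood at -0.80. These 8 also passed with limma on log2(TPM + 1). The members called only with the offset were Rps20 and Rpl28, which were lower, and Rps18 and Rpl22l1, which were higher. Of the 11 shortest proteins, 6 were lower in the interaction, 11 lower on the ruptured side post-hCG, 6 higher with hCG on the unruptured side, 5 lower with hCG on the ruptured side and 1 lower on the putative ruptured side. Their medians with the offset were -0.65, -0.54, 0.33, -0.22 and -0.07, and rho with protein length was 0.61, 0.58, -0.47, 0.35 and -0.40 in the same order. The other 62 standard genes had a median of 0.03 in the interaction. In the genes outside the members with transcripts of at most 500 bases the offset left medians of -0.10 in the interaction, -0.12 between the sides post-hCG and 0.31 with hCG on the unruptured side, and in those for proteins under 110 residues -0.04, -0.04 and 0.19. Between the sides post-hCG the offset left 40 of the 65 falls (8.6% of all genes were lower), each of them in a standard gene, and the 1 rise, of Rps6ka2 (7.37% of all genes were higher).

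Without hCG, the offset raised the number of members that were lower on the putative ruptured side from 10 to 19 (7.46% of all genes), and 8 of the 10 stayed, among them Rpl12, Rpl22l1, Rps2, Rps6, Rps6ka4, Rps12 and Rps18. The exceptions were Rpl3 and Rpl5. The median over the standard genes with the offset was -0.30 between the sides without hCG and -0.30 between the sides post-hCG. Of the 4 higher members 1 stayed (6.79% of all genes were higher), Rps6ka2, while Rps28 gave 0.26 (adjusted p = 0.25), Rps29 0.11 (adjusted p = 0.65) and Rps27l 0.24 (adjusted p = 0.30). Between the media 10 members were higher and 6 lower on the unruptured side (20.8% and 23.1% of all genes), and 15 were higher and 15 lower on the ruptured side (25.0% and 25.8%). The 6 that were lower on the unruptured side were Rpl3, Rpl9, Rps3, Rps3a1, Rps7 and Rps9, none of which passed without the offset.

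**Figure D5:**
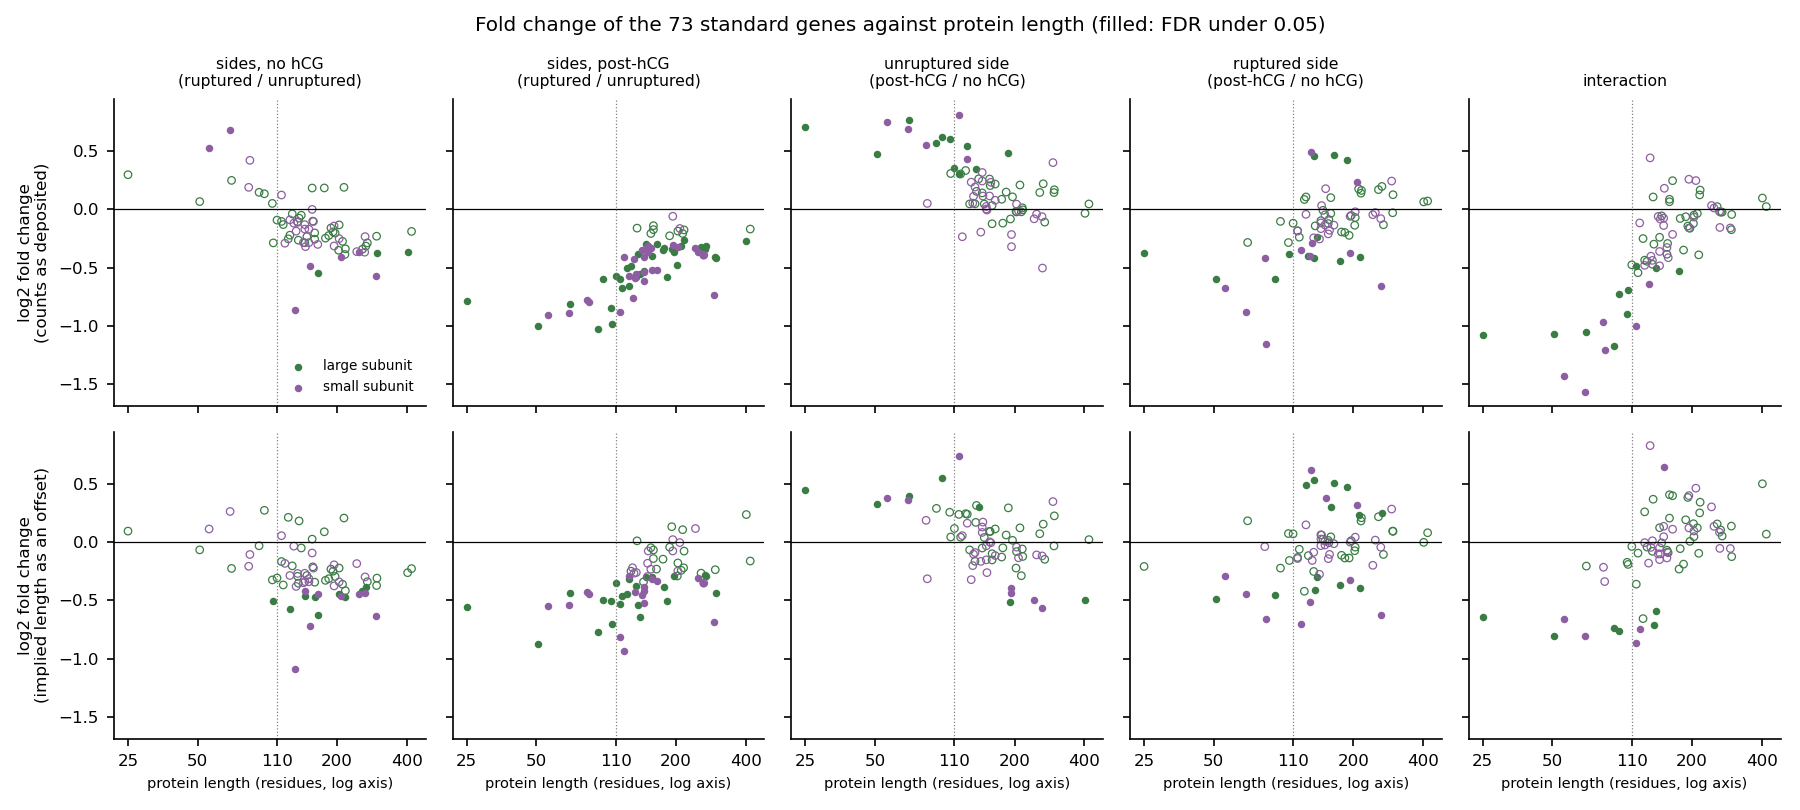
Log2 fold change of the 73 standard genes against the length of their protein in residues, in the 5 comparisons, from the counts as deposited (upper row) and with implied lengths as an offset (lower row). The dotted line marks 110 residues; in the upper row the point furthest from 0 lies left of it between the sides post-hCG, between the media on the ruptured side and in the interaction, but not in the other comparisons, and rho in the interaction is 0.73 above and 0.61 below.

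The paralogs did not all follow their partners. Rpl22l1 is known to be held down by Rpl22 and to replace it. Rpl22 itself changed by -0.04 between the sides without hCG (adjusted p = 0.87), by -0.49 post-hCG (adjusted p = 0.00062) and by -0.40 with hCG on the ruptured side (adjusted p = 0.0027), where Rpl22l1 rose by 0.97. With the offset neither fall of Rpl22 passed, although both did on TPM, and that rise of Rpl22l1 passed on both. Median levels of Rpl22 were 359, 284, 379 and 247 TPM on the putative unruptured, putative ruptured, unruptured and ruptured sides, and those of Rpl22l1 199.2, 74.7, 257 and 171 TPM. Rps27l changed by 0.02 between the sides post-hCG (adjusted p = 0.92), while Rps27 changed by -0.79. Rpl36al had medians of 358, 316, 517 and 383 TPM in the same order and rose with hCG on the unruptured side (0.70 ± 0.14), where Rpl36a changed by 0.31 (adjusted p = 0.13). The differences between partners were not tested. No transcript of these 3 pairs shared a 35-base word with its partner.

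Rpl7l1 was expressed at a mean of 14.1 TPM and passed the FDR in 0 of the 5 comparisons, with adjusted p from 0.27 to 0.98. Rpl10l, a copy of Rpl10 known from male germ cells, had 2 counts in 2 libraries, Rpl39l 1 count in 1 library, and Rpl3l, the copy of Rpl3 in muscle, 0 counts.

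Among the members that are not ribosomal proteins, Rps6ka2, the kinase RSK3 of the Erk pathway, rose with hCG on both sides. It ran from 2.10 to 10.4 TPM (median 7.48, putative unruptured) and from 12.1 to 34.2 TPM (median 17.5, unruptured), and on the other side from 5.59 to 21 TPM (median 9.23, putative ruptured) and from 23.7 to 54.5 TPM (median 32.7, ruptured). The groups with and without hCG did not overlap on either side. The log2 fold change was 1.46 ± 0.20 on the unruptured side (adjusted p = 2.2e-07) and 1.96 ± 0.16 on the ruptured side (adjusted p = 2.6e-12). It was also the 1 member that was higher on the ruptured side post-hCG, by 1.10 ± 0.16 (adjusted p = 6.7e-06). All of its values were whole numbers, so no read was divided between it and another gene, although 40.2% of its 35-base words also lie in other genes.

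Other kinases with the name pattern changed less. Rps6ka4, known as MSK2, was lower on the putative ruptured side (-0.47) and higher with hCG on the ruptured side (0.64 ± 0.12, adjusted p = 3.5e-05). Rps6kb1, which encodes the S6 kinase, passed in 0 of the 5 comparisons, with log2 fold changes from -0.06 to 0.19 and adjusted p from 0.13 to 0.92. Rps6kb2 was higher with hCG on both sides, by 0.42 and 0.45, and passed on neither side with the offset or on TPM. Rps6ka1 was higher with hCG on the ruptured side (0.75 ± 0.19, adjusted p = 0.0011), at medians of 11 and 21 counts per library, and gave 0.42 with the offset (adjusted p = 0.18). Rps6kc1 was lower on the ruptured side post-hCG (-0.44), a call lost with the offset and on TPM. Rps19bp1, which binds Rps19 and Sirt1, was higher with hCG on both sides, by 0.46 and 0.40. With the offset it passed on the ruptured side only, and on TPM on neither.

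Ribosomal proteins with names outside the pattern were read beside the members. The list holds Rplp0, Rplp1, Rplp2, Rpsa, Fau and Rack1 (listed as Gnb2l1) among others. Of its 7 genes, 5 were lower on the ruptured side post-hCG, with Rplp2, of the stalk, at -0.85 ± 0.12 and Fau, the precursor of Rps30, at -0.67 ± 0.10. Rplp2 and Fau were also below 0 in the interaction, at -0.83 and -0.55, but with the offset 0 of the 7 passed there (median 0.03). Rplp0 and Rpsa had lower levels on the putative ruptured side, by -0.42 and -0.50, and Rplp0 was higher with hCG on the ruptured side (0.51).

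Genes that serve the ribosome in other ways were read beside the members, from lists fixed with the member classes. Of 39 tested factors of translation and other TOP messages, 2 were higher and 1, Vim, was lower on the ruptured side post-hCG (-1.27), and of the genes of ribosome biogenesis 4 were higher and 2 lower. Of the mitochondrial ribosomal proteins, which form a separate ribosome, 4 were higher and 2 lower, with a median of 0.02. Between the media, 38 of 76 tested mitochondrial ribosomal proteins were higher and 1 lower with hCG on the unruptured side and 45 higher and 7 lower on the ruptured side, with medians of 0.29 and 0.36, and Mrps23 rose most, by 1.79 and 2.13. In ribosome biogenesis 16 of 61 genes were higher and 9 lower on the unruptured side, where 25.4% of all genes were higher and 27.7% lower, and 29 of 60 were higher and 5 lower on the ruptured side (29.7% and 30.4% of all genes). Myc, a regulator of these genes, rose by 1.14 and 1.17, whereas Rrs1, an assembly factor of the large subunit, fell by 1.96 and 2.46. Of 19 tested genes of mTOR and S6 signaling, Rptor was higher (0.44) and 2 were lower on the ruptured side post-hCG. Eif4ebp1, the brake on cap-dependent translation that mTOR releases, was among the lower ones (-0.97 ± 0.09, adjusted p = 1.3e-08). In the interaction 1 of 20 was above 0 and 2 were below it, Eif4ebp1 among them (-0.85 ± 0.16, adjusted p = 0.00027). With hCG, 8 of 18 were higher and 1 lower on the unruptured side, and 7 of 18 were higher and 3 lower on the ruptured side. Lamtor4, of the Ragulator complex, rose with hCG by 2.37 on the unruptured and 1.77 on the ruptured side.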

How the data were processed

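Bulk RNA-seq of 54 follicle sides was used, with 1 Smart-Seq2 library per side. The authors used HISAT2 with the GRCm38 mouse genome and adjusted batches with ComBat-seq. Whether the tables precede that step, and the counting program, are not given in the sources used here. The main fits held no batch term. The first deposited table holds expected counts per gene and library, fractions included. The second deposited table holds TPM, a level scaled for length and depth. Which length was used for each gene is not given in the sources used here.

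All columns were matched to samples by their names, with 0 left over. Expected counts were rounded, and genes of low count were left out with filterByExpr (at least 10 counts in the libraries it asks for and 15 in all). TMM factors and the quasi-likelihood test of edgeR 4.0.16 (R 4.3.3) were used over all genes, with an FDR of 0.05 after Benjamini-Hochberg adjustment. SE is the log2 fold change divided by the square root of F. Shares, levels and figures were computed in Python 3.11.15 with numpy 2.4.6, pandas 2.3.3 and matplotlib 3.10.9. The fits across genes were first tested on simulated data.

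Members and lists were chosen with earlier results of these data known. Named are, in each comparison of 2 groups, the 6 members with the largest change in each direction past the FDR, for the interaction the 10 largest, the members of highest and lowest level, paralogs with their partners, Rps6, Rpl5, Rpl11, and, past the FDR, members that are not ribosomal proteins and up to 4 genes of other lists. Some genes are not reported here. Genes counted singly in the text were named after their values had been seen.

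Alternatives were DESeq2 1.42.0, limma 3.58.1 on log2(TPM + 1) or log2(TPM + 0.1) for genes averaging 1 TPM or more, other scalings, no filter, all groups in 1 fit, thinning, a replicate block and libraries of 1 label letter. Leaving out libraries and the length offset were added later. Whether samples with the same replicate number are paired is not given in the labels, and the main fits did not pair them. With 12 to 15 libraries a group and totals of 1497138 counts or more, low members such as Rps6ka1 carry the largest counting error.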

Additional observations from a re-analysis of the deposited data

Results flagged for a closer look

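The interaction of side and medium asks whether the difference between the sides itself changed with hCG (edgeR over all 54 libraries). In it, 17 members passed an FDR of 0.05. In each of them the ruptured side was lower relative to the unruptured side post-hCG than without hCG. Label letters differ between the media and between many libraries of the sides, and their part was not tested. The log2 values were -1.57 for Rps28, -1.43 for Rps29, -1.21 for Rps27, -1.17 for Rpl37a, -1.08 for Rpl41 and for Rps27rt, -1.07 for Rpl39, -1.06 for Rpl38, -1.0 for Rps26 and -0.97 for Rps21. Smaller ones were -0.89 for Rpl36, -0.73 for Rpl37, -0.69 for Rpl36a, -0.64 for Rps15a, -0.50 for Rpl23 and -0.49 for Rpl30. With implied lengths as an offset, Rps27, Rps27rt, Rpl38, Rps21, Rpl36, Rpl36a, Rps15a and Rpl30 were among those that no longer passed.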

How the results depend on the processing

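The 46 changes of single members named from the 5 comparisons were recomputed under each alternative. In all, 552 values kept their direction and stayed past the FDR, 46 kept their direction only, and 3 reversed, all of Rps6ka3 between the media on the unruptured side (0.093 with limma on log2(TPM + 1), 0.13 on log2(TPM + 0.1) and 0.084 with the length offset). These changes were picked as the largest past the FDR, and most settings refit the same libraries, so the totals are not independent checks. Within 1 label letter, fitted for the sides only, 7 stayed past the FDR and 10 kept their direction only. With limma on log2(TPM + 1) these numbers were 36 and 9, and with the length offset 37 and 8. Between the sides without hCG, the number of members called higher was 0 with limma at either pseudocount and within 1 label letter and 1 with the offset, and that called lower was 19 with library totals, limma or the offset, 18 with all groups in 1 fit, 5 with the replicate block and 0 within 1 label letter. Post-hCG, 25 were lower within 1 label letter and 40 with the offset. Between the media on the unruptured side, 13 were higher with library totals and 10 with the offset, and the number called lower was 0 with DESeq2, no filter, thinning or the block, 4 with limma, 6 with the offset and 8 with library totals. On the ruptured side, 3 were higher and 63 lower with library totals, and 7 and 29 with limma. In the interaction, 33 were lower with library totals, 27 with the block and 10 with the offset, which called 2 higher. Library totals moved the median of all genes by up to -0.32 (media, ruptured side) and limma on TPM by up to -0.21 (pseudocount 1) or -0.26 (0.1), both for the sides post-hCG, so these counts are relative to that shift. The cause of the other moves was not tested.

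Without replicate 1 of the putative unruptured side or replicate 4 of the putative ruptured side, counts ran from 4 to 5 higher and 9 to 13 lower between the sides without hCG, and from 15 to 18 lower in the interaction (0 higher). The counts between the media, 22 and 1 on the unruptured and 11 and 19 on the ruptured side, did not move, and post-hCG neither group entered the fit. In TPM in place of counts the members' share was 12.9, 11.1, 13.2 and 8.87% and, in counts in place of TPM, the small subunit share was 42.4, 40.9, 41.1 and 40.0% (putative unruptured, putative ruptured, unruptured, ruptured). Samples with the same replicate number deviated together (r over 0.1) in 2 of 14, 3 of 12, 1 of 12 and 3 of 13 pairs of the 4 comparisons of 2 groups. These values cannot show whether such samples share a follicle, animal or culture, and the main fits did not pair them. The fit to genes with at least 90% whole values was not run, because only 1 standard gene met that limit. Depth limits only the members of low level.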
